A study of Homo sapiens with 32 samples.

Results

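The 10 genes described here encode core proteins of N6-methyladenosine (m6A), the most common internal modification of messenger RNA. They are 4 writers (METTL3, METTL14, WTAP and VIRMA), 2 erasers (FTO and ALKBH5) and 4 YTH readers (YTHDF1, YTHDF2, YTHDF3 and YTHDC1). They were taken by symbol from the 62703 gene identifiers of the count tables, and all 10 were found once in each of the 3 tables and passed the filter on low counts. Their counts lay between 547 and 6369 reads in every library. The cells were HEK293T, a transformed human embryonic kidney line. CRISPR/Cas9 with 3 guides per gene had knocked out IGF2BP1, IGF2BP2 or IGF2BP3, and the control had received a guide that targets no gene. Poly(A) RNA was sequenced from total, nuclear and cytoplasmic extracts, without any further treatment. Each kind of RNA had 4 control libraries (batches 1 to 4), 2 of the IGF2BP1 knockout (batches 1 and 2), 2 of the IGF2BP2 knockout and 2 of the IGF2BP3 knockout (both in batches 3 and 4). Cytoplasmic RNA of the IGF2BP3 knockout had 2 more libraries in batch 5, which held no control. Each knockout was 1 clone, so its libraries repeat that clone and an edit cannot be told apart from other differences between clones. Nothing in the labels says that libraries of a group came from separate cultures, so p-values measure the spread between these libraries.

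In the nucleus, METTL3 transfers a methyl group from S-adenosylmethionine to adenosine, METTL14 holds the RNA, and WTAP and VIRMA place the complex on it. FTO and ALKBH5 are oxygenases that remove methyl groups from RNA. YTHDF1, YTHDF2 and YTHDF3 bind m6A in the cytoplasm, where YTHDF2 recruits the CCR4-NOT deadenylase and shortens the life of the RNA. YTHDC1 binds m6A in the nucleus and takes part in splicing and export. The 3 IGF2BP proteins are themselves described as m6A readers that stabilise their target RNAs. The libraries measured RNA levels and not the modification, so they carry no value for m6A itself.

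The 32 libraries held between 13689067 and 26119480 counts. The targeted gene fell in its own knockout in every kind of RNA. In cytoplasmic RNA the log2 fold change was -4.28 (SE 0.05) for IGF2BP1, -1.35 (SE 0.05) for IGF2BP2 and -1.21 (SE 0.06) for IGF2BP3. The other IGF2BP genes moved as well: in cytoplasmic RNA IGF2BP1 stood at -0.63 and -0.65 in the IGF2BP2 and IGF2BP3 knockouts, IGF2BP3 at -0.54 in the IGF2BP2 knockout and 0.31 in the IGF2BP1 knockout, and IGF2BP2 at -0.31 in the IGF2BP3 knockout, all called by edgeR. Total RNA replicate 2 and nuclear RNA replicate 1 of the IGF2BP1 knockout were identical in all 62703 identifiers (21232940 counts), so 31 libraries were distinct and at least 1 of these 2 labels is wrong. Member calls of that knockout in total and nuclear RNA are therefore given with and without this library. It also enters the shared estimate of spread behind the tests of the other knockouts, which are given with it in. All 7 markers of the HEK293 line were above 1 CPM, while 3 of 4 blood cell markers, 3 of 4 fibroblast markers and 3 of 3 endothelial markers were under 1 CPM. CPM is the count relative to the library size after scaling by the trimmed mean of M-values (TMM). Among the 10 genes, control libraries of batches 1 and 2 did not overlap those of batches 3 and 4 for 9 in total RNA. The same held for 8 in nuclear and 7 in cytoplasmic RNA. With 2 libraries on each side such gaps can arise by chance, and the share over all genes was not counted. The log2 differences between these batches were -0.09 to 0.27, -0.08 to 0.37 and 0.04 to 0.31. Batch is given in the labels, so fold changes are from a fit with a term for batch. A gene is called changed at an adjusted p under 0.05 over all genes tested.

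In control cells the RNAs of the 10 genes differed more than 10-fold in level per length. CPM was divided by the length of each gene's principal transcript, and values are means ± SD over the 4 control libraries of total RNA. ALKBH5 stood at 66.0 ± 7.06 CPM per kb and METTL3 at 60.6 ± 2.26, and these 2 overlapped. YTHDF2 followed at 50.7 ± 2.08, YTHDC1 at 37.3 ± 0.953 and YTHDF3 at 33.0 ± 0.643. WTAP reached 28.6 ± 1.07, YTHDF1 22.5 ± 2.20 and VIRMA 17.4 ± 0.908. METTL14 at 6.59 ± 0.118 and FTO at 5.63 ± 0.359 were lowest. The ranges of all other neighbours in this order lay apart. The 2 partners of the catalytic core were thus unequal, with a METTL3 to METTL14 ratio per kb of 9.21 ± 0.504 in total, 11.3 ± 1.17 in nuclear and 5.65 ± 0.238 in cytoplasmic RNA of the control. The ratio depends on which length is used. Over the union of all annotated exons, METTL3 stood at 20.7 ± 0.772 CPM per kb, below ALKBH5, YTHDF2 and YTHDF1, against 6.40 ± 0.115 for METTL14.

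The deposited FPKM values gave another picture of FTO. They had been divided by the whole gene span, introns included: in every library at least 99.99% of genes with over 200 counts matched the span within 1%, against 0.676% to 0.957% for the union of exons. FTO spans 456821 bases, which is 38.8 times its principal transcript. Its deposited FPKM was 0.143 ± 0.0096 in total RNA, against 1.438 ± 0.0244 for METTL14, although FTO RNA was counted more often, at 66.2 ± 4.22 CPM against 43.9 ± 0.787. Levels of different genes are therefore compared below only per kb of transcript. Fold changes of 1 gene between samples do not depend on the length when they are fitted to counts. The alternative limma fits add 1 or 0.1 to the FPKM, so there the length does matter for a gene as low as FTO.

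**Figure D1:**
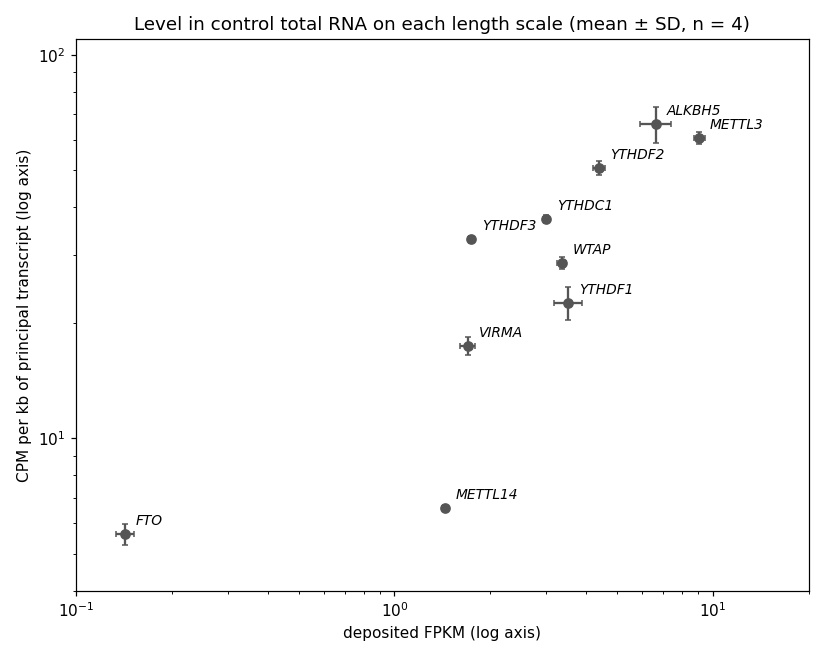
Control total RNA of the 10 genes on 2 length scales, both axes logarithmic: deposited FPKM (gene span) across and CPM per kb of principal transcript up; points are means and bars SDs of 4 libraries. FTO is at 0.143 FPKM and 5.63 CPM per kb, whereas METTL14, close to it on the vertical axis, is at 1.438 FPKM.

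The writers' consensus has the core GGAC, and GGACT is its most used form in human RNA. It was searched on the transcript strand only, in the principal transcripts of GENCODE 29 (GRCh38). Among the 13980 principal transcripts of genes tested in total RNA, 91.67% held at least 1 GGACT, and the median was 0.944 per kb. METTL3 had 4 matches, or 1.99 per kb, more than 90.6% of all principal transcripts. VIRMA had 1.53, ALKBH5 1.46, METTL14 1.20 and YTHDF2 1.03 per kb. YTHDF3 had 0.844, WTAP 0.821, FTO 0.425, YTHDC1 0.308 and YTHDF1 0.303. The match nearest the stop codon, around which m6A is known to be dense, is shown for 4 genes whose changes are described further on, 5′ to 3′ with 10 bases on each side and the motif in capitals.
METTL3: gtgcagaacaGGACTcgactacagt
WTAP: agaatggcttGGACTcaagtgtaaa
ALKBH5: agtcctcagaGGACTgctctgaggc
YTHDF2: aagagaattaGGACTtttttcttaa
The METTL3 window is on the minus strand at chr14:21503336-21503360, in the coding part of exon 3, and the motif starts 1195 bases before the first base of the stop codon. The WTAP window (plus strand, chr6:159755565-159755589, coding part of exon 8) and the ALKBH5 window (plus strand, chr17:18208329-18208353, coding part of exon 4) have their motifs 34 and 55 bases before that base. The YTHDF2 window (plus strand, chr1:28769020-28769044, exon 5) lies in the 3′ UTR, with the motif 80 bases after it. A match is a stretch of letters, and methylation at these positions was not measured.

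The RNAs of the 10 genes were not spread alike between nucleus and cytoplasm of control cells. Over 4 nuclear and 4 cytoplasmic libraries, 7 of the 10 genes were called (65.9% of 16246 genes tested), 3 higher in nuclear RNA (32.6% of all genes) and 4 lower (33.3%). METTL3 RNA was the most nuclear of them, with a log2 difference of nuclear minus cytoplasmic CPM of 1.31 (SE 0.06, edgeR adjusted p = 1.95e-14). It stood at 160, 178, 184 and 173 CPM in the nuclear libraries and at 67.7, 68.2, 64.1 and 62.4 CPM in the cytoplasmic ones, with no overlap. VIRMA (0.56, SE 0.06) and METTL14 (0.32, SE 0.07) were also higher in nuclear RNA. Both erasers were lower there, ALKBH5 by a log2 difference of -0.95 (SE 0.06) and FTO by -0.61 (SE 0.07). Only 1.38% of all genes tested had a lower value than ALKBH5. YTHDF1 (-0.23, SE 0.06) and WTAP (-0.16, SE 0.06) were slightly lower in nuclear RNA, and the WTAP call was lost without nuclear or cytoplasmic control replicate 2 or 3 (edgeR adjusted p 0.0587 to 0.103). YTHDF2 (-0.03), YTHDF3 (0.10) and YTHDC1 (0.12) were not called, with edgeR adjusted p of 0.649, 0.152 and 0.099. The values are relative to the average RNA of each extract: the nuclear MALAT1 stood at 2.15 on this scale and the mitochondrial MT-ND1 at -2.18.

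The set of changes among the 10 genes differed between knockouts, with some genes shared. METTL3 was called lower in both the IGF2BP2 and IGF2BP3 knockouts, and YTHDF1 higher in cytoplasmic RNA of all 3 knockouts. Of the 90 tests of a knockout against control (10 genes, 3 knockouts, 3 kinds of RNA), 41 were called. In total RNA of the IGF2BP1 knockout 1 of 10 genes was called (24.2% of all genes tested), 0 higher (10.7%) and 1 lower (13.5%). Its nuclear RNA also gave 1 (25.7%), 0 higher (12.7%) and 1 lower (13%), and its cytoplasmic RNA 5 (44.4%), 3 higher (22.5%) and 2 lower (21.9%). Without the identical library 3 genes were called in total RNA (YTHDF3 higher, WTAP and ALKBH5 lower) and 3 in nuclear RNA (FTO higher, METTL3 and ALKBH5 lower). The IGF2BP2 knockout gave 5 in total RNA (47%), 2 higher (23.3%) and 3 lower (23.7%). It gave 6 in nuclear RNA (49.7%), 4 higher (24.8%) and 2 lower (24.9%), and 9 in cytoplasmic RNA (64.2%), 3 higher (30.9%) and 6 lower (33.2%). For the IGF2BP3 knockout total RNA gave 3 (46.9%), 0 higher (23.5%) and 3 lower (23.4%). Nuclear RNA gave 4 (50.4%), 0 higher (25.1%) and 4 lower (25.3%), and cytoplasmic RNA 7 (64.7%), 1 higher (31.5%) and 6 lower (33.2%). With all libraries in, the share of the 10 genes called was below that of all genes in 4 of these 9 comparisons and above it in 5. What distinguished the knockouts was which of the genes moved and by how much. The median of the 10 log2 fold changes was between -0.21 and 0.06 in all 9 comparisons, while that of all genes was between 0.00 and 0.02. A higher or lower level in bulk RNA cannot tell fewer cells from less RNA per cell. Of the 41 calls, 23 were kept in every alternative processing tried and 13 were lost when some single library was left out.

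**Figure D2:**
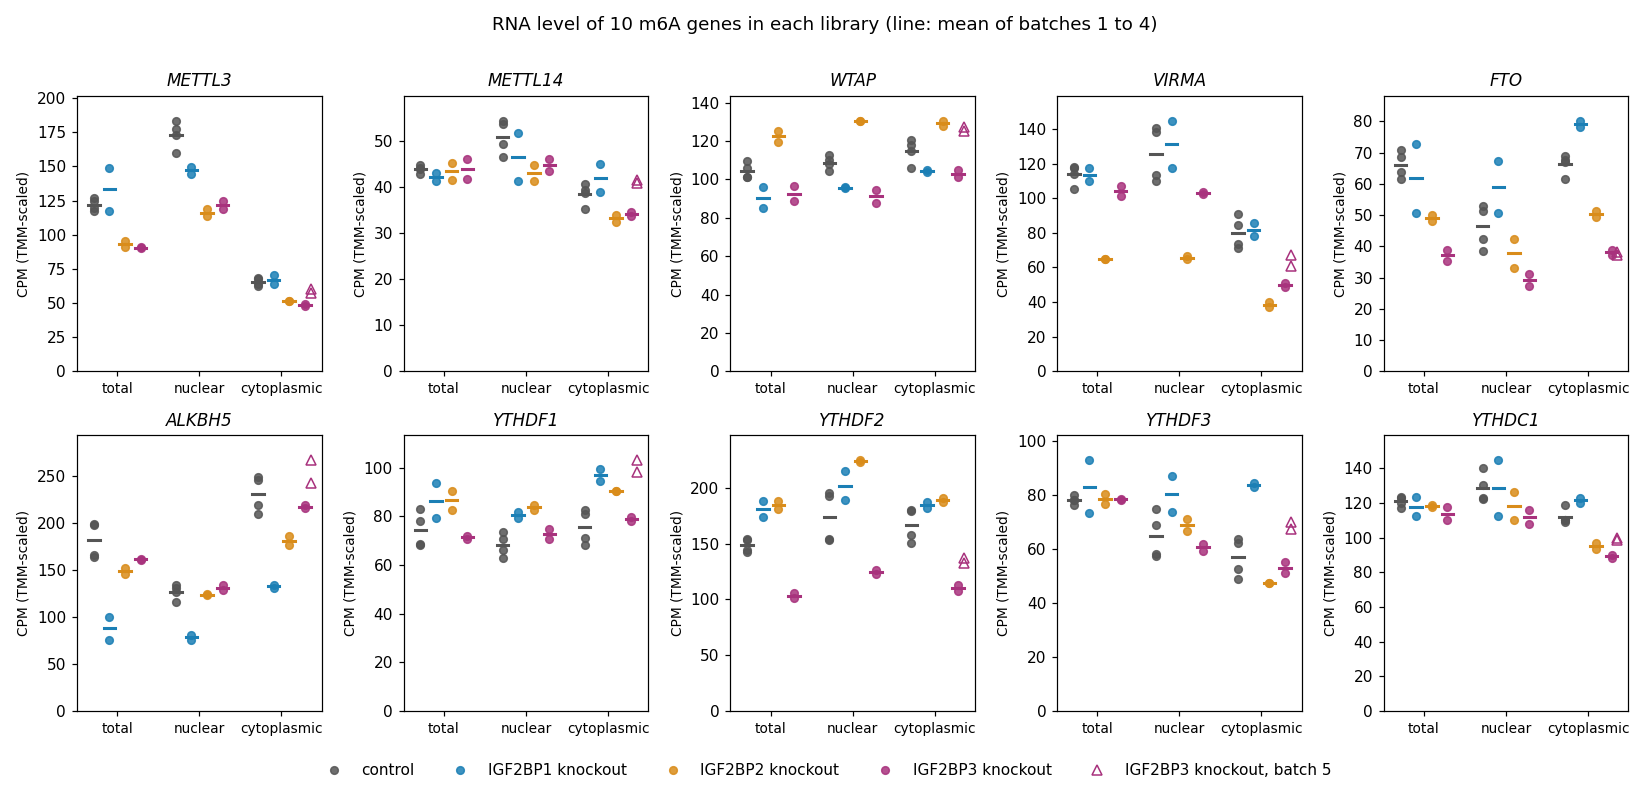
CPM of each of the 10 genes in every library of total, nuclear and cytoplasmic RNA (a panel for each gene, axis from 0), by genotype; lines are means of batches 1 to 4 and open triangles the 2 batch 5 libraries. ALKBH5 lies below all controls of its RNA kind in every IGF2BP1 knockout library, VIRMA in every IGF2BP2 knockout library, and FTO and YTHDF2 in every IGF2BP3 knockout library.

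**Figure D3:**
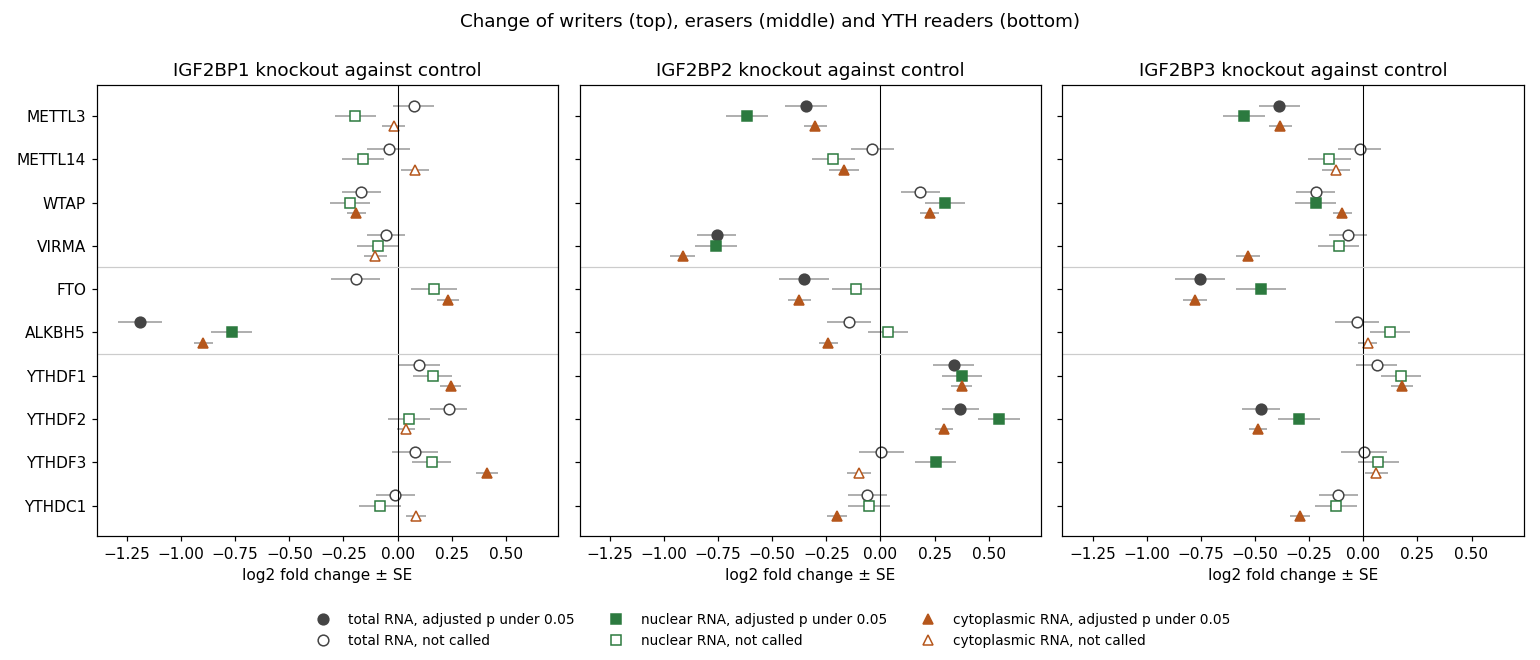
Log2 fold change ± SE of each gene against the control, a panel for each knockout; circles are total, squares nuclear and triangles cytoplasmic RNA, filled where the edgeR adjusted p is under 0.05. The most negative value is -1.19 (ALKBH5, IGF2BP1 knockout, total RNA) and the most positive 0.55 (YTHDF2, IGF2BP2 knockout, nuclear RNA).

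Among the writers, VIRMA, the large scaffold that directs methylation toward the end of the message, fell in the IGF2BP2 knockout. In cytoplasmic RNA it stood at 90.7, 84.6, 73.7 and 71.0 CPM in control replicates 1 to 4, at 37.0 and 39.8 CPM in the IGF2BP2 knockout, and at 49.0 and 50.8 CPM in the IGF2BP3 knockout of batches 3 and 4. The IGF2BP1 knockout stood at 85.4 and 78.0 CPM, within the control range but each below the control of its own batch. Its log2 fold change was -0.10 (SE 0.05, edgeR adjusted p = 0.110) and not called. With only the batches of that knockout the value was -0.11 and called (edgeR adjusted p = 0.0269). Both other knockouts lay below every control library. The log2 fold change in cytoplasmic RNA was -0.91 (SE 0.06, edgeR adjusted p = 1.29e-15) for the IGF2BP2 knockout and -0.53 (SE 0.06, edgeR adjusted p = 2.64e-10) for the IGF2BP3 knockout. In total RNA VIRMA stood at 105 to 118 CPM in the control, at 64.8 and 64.9 CPM in the IGF2BP2 knockout and at 101 and 107 CPM in the IGF2BP3 knockout. The IGF2BP2 knockout was again apart from all controls, with a log2 fold change of -0.76 (SE 0.09), and -0.76 (SE 0.10) in nuclear RNA. The IGF2BP3 knockout was not called in total (-0.07, SE 0.09, edgeR adjusted p = 0.534) or nuclear RNA (-0.11, SE 0.10, edgeR adjusted p = 0.335); without the batch term the nuclear value was -0.28 and called (edgeR adjusted p = 0.0468). Genes within 5 Mb of VIRMA had a median log2 fold change of -0.09 in cytoplasmic RNA of the IGF2BP2 knockout, with 17 of 53 higher and 19 lower.

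METTL3, the catalytic subunit, was lower in both the IGF2BP2 and the IGF2BP3 knockout. Nuclear RNA, where its CPM was highest, held 114 and 119 CPM with IGF2BP2 knocked out and 119 and 125 CPM with IGF2BP3 knocked out, against 160 to 184 CPM in the 4 controls. Neither knockout overlapped the control. The log2 fold changes were -0.62 (SE 0.10, edgeR adjusted p = 6.81e-07) and -0.55 (SE 0.10, edgeR adjusted p = 4.65e-06) in nuclear RNA, and -0.30 (SE 0.05) and -0.38 (SE 0.05) in cytoplasmic RNA, with all 4 kept in every alternative. In total RNA METTL3 fell by 0.34 (SE 0.10) and 0.39 (SE 0.10). Those 2 calls were lost when control replicate 3 or 4 or either library of the knockout was left out, with edgeR adjusted p of 0.0767 to 0.160 and 0.0579 to 0.0893. Upper quartile scaling also ended the total RNA call in the IGF2BP2 knockout (edgeR adjusted p = 0.0624). The IGF2BP1 knockout gave no call for METTL3, at 0.07 in total, -0.20 in nuclear and -0.02 in cytoplasmic RNA; without the identical library the nuclear value was -0.29 and was called (edgeR adjusted p = 0.0461), and the total value was -0.08. Of its 105 tested neighbours within 5 Mb, 51 were called higher and 19 lower without IGF2BP2 in the cytoplasm (median 0.38; 30.9% and 33.2% of all genes). The cytoplasm without IGF2BP3 gave 52 higher and 15 lower (median 0.39; 31.5% and 33.2% of all genes). The gene at chr14:21498133-21511375 overlaps an exon of TOX4 on the opposite strand, which reached 80.55 CPM, and whether the counting used strand is not given in the sources used here.

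WTAP, which brings the catalytic core to nuclear speckles, differed in direction between knockouts. In cytoplasmic RNA it stood at 106 to 120 CPM in the control, at 104 and 105 CPM in the IGF2BP1 knockout, at 130 and 128 CPM in the IGF2BP2 knockout and at 105 and 101 CPM in the IGF2BP3 knockout of batches 3 and 4. The IGF2BP2 knockout lay above every control library and the others just below the lowest, whereas the 2 IGF2BP3 knockout libraries of batch 5, at 125 and 127 CPM, lay above the highest. In the IGF2BP2 knockout the log2 fold change was 0.23 (SE 0.04, edgeR adjusted p = 2.63e-05), with 0.30 (SE 0.09) in nuclear RNA. The nuclear call was lost without control replicate 3 or 4 or knockout replicate 2 (edgeR adjusted p 0.0566 to 0.197), and the cytoplasmic call without the batch term (0.17, edgeR adjusted p = 0.157). In the IGF2BP1 knockout WTAP fell by 0.19 (SE 0.04) in cytoplasmic RNA, a call lost without control or knockout replicate 1 (edgeR adjusted p 0.0553 to 0.060) and without the batch term (edgeR adjusted p = 0.359). Its total value was -0.17 and not called (edgeR adjusted p = 0.200), or -0.25 and called without the identical library (edgeR adjusted p = 0.0415). The IGF2BP3 knockout passed the threshold narrowly in cytoplasmic RNA (-0.10, edgeR adjusted p = 0.0493) and in nuclear RNA (-0.22, edgeR adjusted p = 0.0443). These calls held in 5 of 22 and 7 of 19 alternatives, the cytoplasmic value was -0.05 without control replicate 3, and upper quartile scaling turned the cytoplasmic value to 0.07 (edgeR adjusted p = 0.159). The total RNA value was 0.18 in the IGF2BP2 knockout (edgeR adjusted p = 0.113) and -0.22 in the IGF2BP3 knockout (edgeR adjusted p = 0.0625). The nuclear value of the IGF2BP1 knockout was -0.22 (edgeR adjusted p = 0.0765). None of these was called, though each was in some alternative. WTAP had 34 tested neighbours within 5 Mb in cytoplasmic RNA, whose medians were -0.26, 0.23 and -0.18 in the IGF2BP1, IGF2BP2 and IGF2BP3 knockouts. Within 1 Mb, over 10 genes, the medians were -0.30, -0.19 and -0.20, so the sign in the IGF2BP2 knockout depends on the distance; the neighbours' part in the result was not tested. The gene at chr6:159725585-159756319 overlaps exons of SOD2 on the opposite strand, which reached 200.7 CPM.

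METTL14, the RNA-binding partner of METTL3, moved least among the writers. Its total RNA stood at 42.9 to 44.8 CPM in the control and at 41.2 to 46.1 CPM over the 6 knockout libraries, and the groups overlapped. Its only call was in the IGF2BP2 knockout, in cytoplasmic RNA (32.4 and 34.0 CPM against 35.2 to 40.7 CPM), where the log2 fold change was -0.17 (SE 0.07, edgeR adjusted p = 0.0292). It was lost in 10 of 22 alternatives, among them leaving out control replicate 3 or knockout replicate 1 (-0.06 and -0.09, edgeR adjusted p 0.554 and 0.363), upper quartile scaling (-0.02, edgeR adjusted p = 0.803) and DESeq2 (adjusted p = 0.152). The METTL3 to METTL14 ratio per kb in total RNA was 8.67 to 9.81 over the control libraries. It was 7.03 and 7.24 with IGF2BP2 knocked out and 6.52 and 7.13 with IGF2BP3 knocked out, below every control.

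Of the erasers, ALKBH5 had the largest change of all 10 genes, a fall in total RNA of the IGF2BP1 knockout. In cytoplasmic RNA its fall was close to that of VIRMA in the IGF2BP2 knockout (-0.90 against -0.91). The CPM of ALKBH5 was highest in cytoplasmic RNA, at 245, 248, 209 and 219 CPM in control replicates 1 to 4. The IGF2BP1 knockout stood at 131 and 134 CPM there. The groups did not overlap, and the knockout held 53.7% of the same-batch control level (log2 fold change -0.90, SE 0.04, edgeR adjusted p = 1.19e-17). In nuclear RNA the control held 115 to 134 CPM and the knockout 75.4 and 80.7 CPM, a log2 fold change of -0.77 (SE 0.09), or -0.73 (SE 0.11) without the identical library. In total RNA the control held 163 to 198 CPM and the knockout 99.97 and 75.2 CPM, the second being the identical library. The log2 fold change there was -1.19 (SE 0.10), or -0.98 (SE 0.08, edgeR adjusted p = 2.67e-10) without the identical library. In the IGF2BP2 knockout ALKBH5 was slightly lower in cytoplasmic RNA, at 186 and 176 CPM (-0.24, SE 0.04, edgeR adjusted p = 1.38e-05), a call lost under upper quartile scaling (-0.09, edgeR adjusted p = 0.0644). The IGF2BP3 knockout was not called in any kind of RNA, with values of -0.03, 0.12 and 0.02; upper quartile scaling raised the nuclear and cytoplasmic ones to 0.21 and 0.19, both called (edgeR adjusted p = 0.0443 and 0.00026).

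Genes around ALKBH5 on chromosome 17 (the gene lies at chr17:18183078-18209954) were lower in the same knockout. Within 5 Mb of it, 63 of 88 tested genes were called lower and 0 higher in cytoplasmic RNA of the IGF2BP1 knockout, with a median log2 fold change of -0.79; 21.9% of all genes were called lower in that comparison. From the end of the short arm to 2 Mb past ALKBH5, 218 of 287 genes were called lower and 0 higher, with a median of -0.87. Over the 759 genes more than 10 Mb past ALKBH5, the median was -0.37, with 437 lower and 29 higher. In the IGF2BP2 and IGF2BP3 knockouts the medians of the 287 genes were 0.02 and 0.22. METTL16, another RNA methyltransferase gene on this arm, fell by 0.82 (SE 0.05) in cytoplasmic RNA of the IGF2BP1 knockout. The edited gene IGF2BP1 is on the same chromosome, 30.8 Mb past ALKBH5. The part of these neighbours in the fall of ALKBH5 was not tested.

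**Figure D4:**
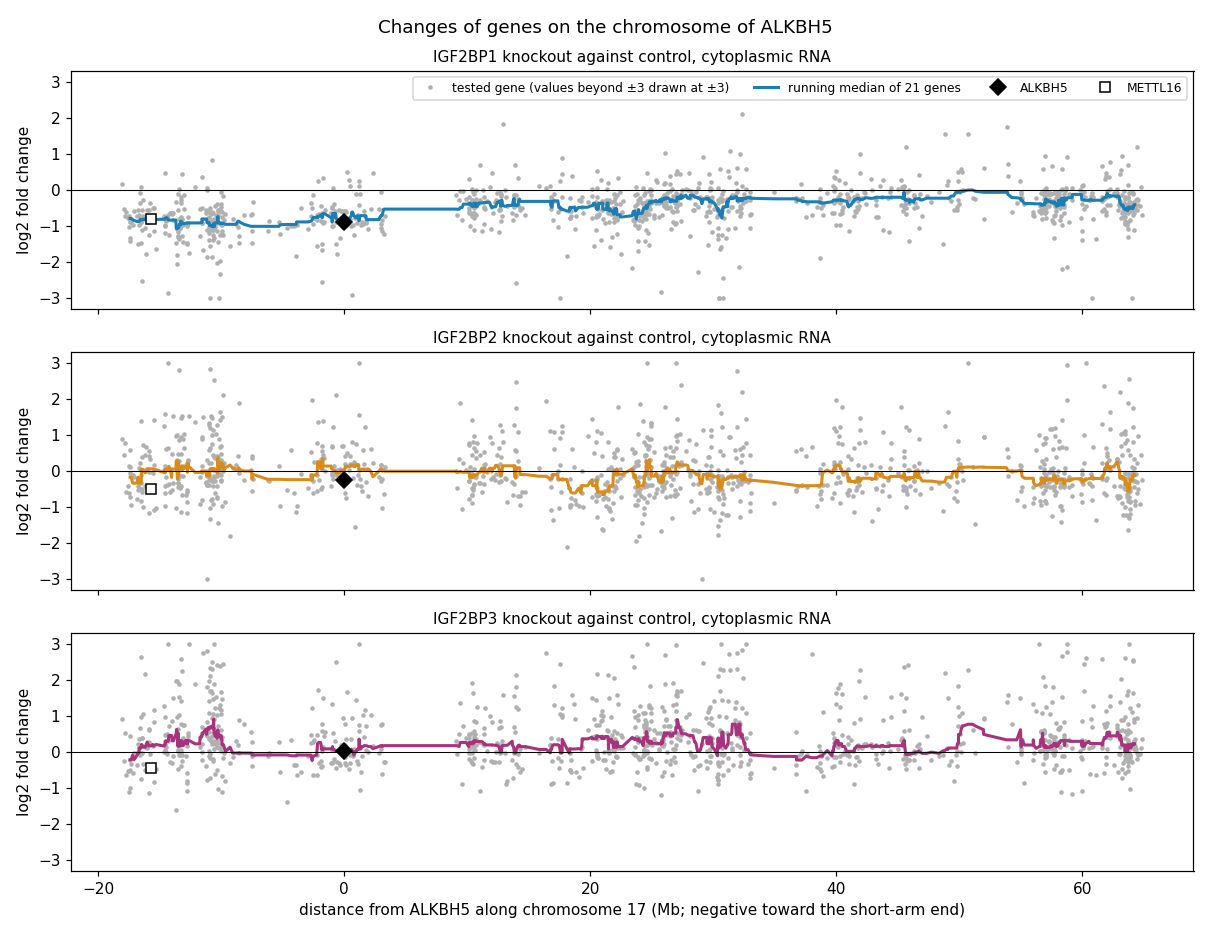
Log2 fold change in cytoplasmic RNA of every tested gene on chromosome 17 against its distance from ALKBH5 (Mb, negative toward the end of the short arm), a panel for each knockout; lines are running medians of 21 genes. In the IGF2BP1 knockout the genes left of ALKBH5 and up to 2 Mb right of it lie around a median of -0.87, as does ALKBH5 at -0.90, and in the other panels the same genes lie around 0.02 and 0.22.

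FTO, the other eraser, fell in the IGF2BP3 knockout. In cytoplasmic RNA it stood at 67.2, 67.7, 69.0 and 61.7 CPM in the control, at 80.2 and 78.4 CPM in the IGF2BP1 knockout, at 51.4 and 49.3 CPM in the IGF2BP2 knockout, and at 39.0, 37.1, 38.2 and 37.3 CPM in the IGF2BP3 knockout. The 4 genotypes did not overlap. The log2 fold change in the IGF2BP3 knockout was -0.78 (SE 0.05, edgeR adjusted p = 1.94e-14) in cytoplasmic, -0.76 (SE 0.12) in total and -0.47 (SE 0.11) in nuclear RNA. The nuclear call was lost without control replicate 4 or knockout replicate 1 (edgeR adjusted p 0.0548 and 0.113). That nuclear call was also lost in both limma fits, at -0.03 and -0.21 (limma adjusted p 0.17 and 0.133). Those fits add 1 and 0.1 to an FPKM that was 0.101 in nuclear and 0.143 in total control RNA, which makes fold changes smaller. The part of this in the lost calls was not tested. In the IGF2BP2 knockout the cytoplasmic value was -0.38 (SE 0.05, edgeR adjusted p = 1.90e-07) and the total one -0.35 (SE 0.12, edgeR adjusted p = 0.0226). The total RNA call was lost when control replicate 3 or 4 or either knockout library was left out (edgeR adjusted p 0.119 to 0.193) and under upper quartile scaling (edgeR adjusted p = 0.0821). Both limma fits lost this total RNA call too, at -0.04 and -0.19 (limma adjusted p 0.0899 and 0.0993). FTO rose in cytoplasmic RNA of the IGF2BP1 knockout by 0.23 (SE 0.05, edgeR adjusted p = 0.000243). There the total value was -0.19 and the nuclear value 0.17, neither called. Without the identical library they were 0.05 and 0.39, and the nuclear one was called (edgeR adjusted p = 0.023). Of 72 neighbours within 5 Mb of FTO (chr16:53701692-54158512), 36 were called lower and 14 higher in cytoplasmic RNA of the IGF2BP3 knockout, with a median of -0.32; 33.2% of all genes were called lower there, and the neighbours' part in the result was not tested.

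Among the readers, YTHDF2 moved in opposite directions in 2 knockouts. In cytoplasmic RNA it stood at 180, 180, 151 and 157 CPM in control replicates 1 to 4, at 187 and 182 CPM in the IGF2BP1 knockout, at 190 and 187 CPM in the IGF2BP2 knockout and at 112 and 108 CPM in the IGF2BP3 knockout of batches 3 and 4. The IGF2BP2 libraries lay above and the IGF2BP3 libraries below all 4 controls. The log2 fold change was 0.29 (SE 0.04, edgeR adjusted p = 1.61e-07) in the IGF2BP2 knockout and -0.49 (SE 0.04, edgeR adjusted p = 5.05e-12) in the IGF2BP3 knockout. Total RNA gave 0.37 (SE 0.09) and -0.47 (SE 0.09), and nuclear RNA 0.55 (SE 0.10) and -0.30 (SE 0.10). Leaving out 1 library ended the call in total RNA of the IGF2BP2 knockout (control replicate 4 or either knockout library, edgeR adjusted p 0.0656 to 0.0933). It also ended the call in nuclear RNA of the IGF2BP3 knockout (control replicate 3 or 4 or either knockout library, edgeR adjusted p 0.0647 to 0.166). Upper quartile scaling ended that nuclear call too (-0.21, edgeR adjusted p = 0.058), and without the batch term the cytoplasmic call of the IGF2BP2 knockout was lost (0.18, edgeR adjusted p = 0.177). YTHDF2 was not called in the IGF2BP1 knockout: its cytoplasmic value was 0.04 (SE 0.04, edgeR adjusted p = 0.475). Its total value there was 0.24 (SE 0.09, edgeR adjusted p = 0.0619) with and 0.19 (edgeR adjusted p = 0.108) without the identical library, and 4 alternatives called it with that library in (edgeR adjusted p 0.0158 to 0.0437). The 154 genes tested within 5 Mb of YTHDF2 (chr1:28736621-28769775) had a median of -0.04 in cytoplasmic RNA of each of the IGF2BP2 and IGF2BP3 knockouts. The 32 genes within 1 Mb had medians of -0.15 and -0.20, and their part in the result was not tested.

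YTHDF1 rose in cytoplasmic RNA of all 3 knockouts. It stood at 68.3 and 71.0 CPM in the controls of batches 3 and 4, at 90.4 and 90.3 CPM in the IGF2BP2 knockout and at 78.0 and 79.7 CPM in the IGF2BP3 knockout. In batches 1 and 2 the controls stood at 80.8 and 82.5 CPM and the IGF2BP1 knockout at 99.3 and 94.3 CPM. Each knockout was above the controls of its own batches, while the IGF2BP3 knockout overlapped the range of the 4 controls. The log2 fold changes were 0.25 (SE 0.05), 0.37 (SE 0.05) and 0.18 (SE 0.05) in the IGF2BP1, IGF2BP2 and IGF2BP3 knockouts (edgeR adjusted p 6.32e-05, 3.89e-08 and 0.00201). The IGF2BP2 knockout was also called in total RNA (0.34, SE 0.09) and nuclear RNA (0.38, SE 0.09). The total RNA call was lost when control replicate 3 or 4 or either knockout library was left out (edgeR adjusted p 0.0656 to 0.230), and without the batch term the calls in total and cytoplasmic RNA were lost (edgeR adjusted p = 0.0918 and 0.0835). Genes within 5 Mb of YTHDF1 had a median of 0.29 in cytoplasmic RNA of the IGF2BP3 knockout, with 46 of 80 higher, and their part in the result was not tested; in the IGF2BP1 and IGF2BP2 knockouts the medians were 0.05 and 0.07.

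YTHDF3 rose in cytoplasmic RNA of the IGF2BP1 knockout. The 2 libraries stood at 84.7 and 83.0 CPM, against 63.8 and 62.2 CPM in the controls of their batches and 52.8 and 49.1 CPM in the other controls. The log2 fold change was 0.41 (SE 0.05, edgeR adjusted p = 3.14e-08), the largest rise of the 10 genes in that knockout. The total and nuclear values were 0.08 and 0.16, neither called; without the identical library the total value was 0.29 and was called (edgeR adjusted p = 0.0181). In nuclear RNA of the IGF2BP2 knockout YTHDF3 passed the threshold (0.25, SE 0.09, edgeR adjusted p = 0.0217) but was lost in DESeq2 (adjusted p = 0.0615), in limma on FPKM and without control replicate 3 or 4 or knockout replicate 2 (edgeR adjusted p 0.177 to 0.257). Without the batch term that value was 0.09 (edgeR adjusted p = 0.531).

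YTHDC1, the nuclear reader, fell in cytoplasmic RNA of 2 knockouts. It stood at 119, 110, 110 and 109 CPM in the control, at 93.3 and 97.2 CPM in the IGF2BP2 knockout and at 90.2 and 88.5 CPM in the IGF2BP3 knockout of batches 3 and 4. Both knockouts lay below all controls. The log2 fold change was -0.20 (SE 0.05, edgeR adjusted p = 0.000276) and -0.29 (SE 0.05, edgeR adjusted p = 1.17e-06), and the first call was lost under upper quartile scaling (-0.05, edgeR adjusted p = 0.308). In nuclear RNA its values were -0.05 and -0.13, and neither was called.

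The mix of the 3 cytoplasmic readers differed between genotypes. Of the summed CPM per kb of YTHDF1, YTHDF2 and YTHDF3 in cytoplasmic RNA, YTHDF2 made up 54.9% ± 0.761 (SD, n = 4) in the control. Without IGF2BP1 the share was 49.3% and 49.5%, without IGF2BP2 57.5% and 57.9%, and without IGF2BP3, in batches 3 and 4, 44.7% and 45.0%. In the IGF2BP1 knockout YTHDF2 itself was not called, while YTHDF1 and YTHDF3 rose. None of the knockouts overlapped the control range of 54.5% to 56.0%. In total RNA the share was 47.5% to 47.8% in the control, 51.3% and 51.9% without IGF2BP2, and 38.6% and 39.7% without IGF2BP3, again with no overlap. Without IGF2BP1 it was 46.8% and 53.9%, on either side of the control, the second being the identical library. In nuclear RNA the IGF2BP1 knockout, at 53.9% and 54.4%, overlapped the control at 54.3% to 56.9%. The sum itself was 94.6 to 113 CPM per kb in cytoplasmic control libraries, and 126 and 129.8 without IGF2BP1, above every control. Without IGF2BP2 it was 112.5 and 111.5, within the control range but above the controls of batches 3 and 4 (94.6 and 96.0). Without IGF2BP3 the sum was 82.5 and 85.4 in batches 3 and 4, below every control, and 105 and 106 in batch 5, within the control range. The sum was not tested.

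Direct tests between knockouts showed which of these changes differed. The IGF2BP2 and IGF2BP3 knockouts share batches 3 and 4, and 5 genes were called between them in total RNA (43.3% of all genes tested), 1 higher in the IGF2BP3 knockout (21.8%) and 4 lower (21.5%). Nuclear RNA gave 4 (48.2%), 1 higher (24.1%) and 3 lower (24.1%), and cytoplasmic RNA 7 (62.7%), 3 higher (31.3%) and 4 lower (31.4%). YTHDF2 was lower in the IGF2BP3 knockout by a log2 difference of -0.84 (SE 0.09) in total, -0.84 (SE 0.10) in nuclear and -0.78 (SE 0.04) in cytoplasmic RNA. VIRMA was higher by 0.69 (SE 0.09), 0.65 (SE 0.10) and 0.38 (SE 0.06). FTO was lower by -0.40 (SE 0.12), -0.36 (SE 0.12) and -0.40 (SE 0.05), and WTAP by -0.40 (SE 0.09), -0.52 (SE 0.09) and -0.33 (SE 0.04). The YTHDF2 and VIRMA calls held in every alternative. The total RNA calls of FTO (without either library of either knockout, edgeR adjusted p 0.0986 to 0.165) and WTAP (without either IGF2BP2 library or IGF2BP3 replicate 2, edgeR adjusted p 0.0677 to 0.0913) did not, nor did the nuclear call of FTO. The latter went to -0.11 without IGF2BP2 knockout replicate 1 and -0.22 without IGF2BP3 knockout replicate 1 (edgeR adjusted p 0.579 and 0.321), and was lost in DESeq2, both limma fits and without the batch term. The total RNA call of FTO was also lost in both limma fits, at -0.03 and -0.19 (limma adjusted p 0.117 and 0.102). The low FPKM of FTO makes fold changes smaller in those fits. The cytoplasmic call of WTAP was lost without the batch term (edgeR adjusted p = 0.173). METTL3 did not pass the threshold between these knockouts, with values of -0.04 (SE 0.10), 0.07 (SE 0.10) and -0.08 (SE 0.05).

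The IGF2BP1 knockout, in batches 1 and 2, was compared with the other knockouts in cytoplasmic RNA through the controls of each batch. Against it, 9 genes were called in the IGF2BP2 knockout (48.4% of all genes tested), 3 higher (20.9%) and 6 lower (27.5%). The IGF2BP3 knockout gave 7 (51.3%), 1 higher (22.2%) and 6 lower (29.1%). ALKBH5 was higher by 0.66 (SE 0.06) and 0.92 (SE 0.06), and FTO lower by -0.61 (SE 0.07) and -1.01 (SE 0.07). VIRMA was lower by -0.81 (SE 0.08) and -0.43 (SE 0.08), and YTHDF3 by -0.51 (SE 0.08) and -0.35 (SE 0.07). YTHDF2 was higher by 0.25 (SE 0.06) in the IGF2BP2 knockout and lower by -0.53 (SE 0.06) in the IGF2BP3 knockout. The first of these was lost without the batch term (0.03, edgeR adjusted p = 0.845).

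A test of the change in the nuclear to cytoplasmic ratio asked whether a knockout moved the 2 compartments apart. For the IGF2BP1 knockout 0 of 10 genes were called (2.99% of all genes tested; 1.9% toward the nucleus and 1.09% toward the cytoplasm), with and without the identical library, and the smallest edgeR adjusted p with it was 0.176 (YTHDF3). For the IGF2BP2 knockout 2 were called (18%), 1 toward the nucleus (8.66%) and 1 toward the cytoplasm (9.36%). METTL3 shifted toward the cytoplasm by -0.36 (SE 0.10, edgeR adjusted p = 0.0165) and YTHDF3 toward the nucleus by 0.31 (SE 0.10, edgeR adjusted p = 0.0328). The METTL3 value of the IGF2BP1 knockout was also toward the cytoplasm, at -0.16 with and -0.29 without the identical library. In the IGF2BP3 knockout 1 was called toward the nucleus (10.2% in all, 4.1% toward the nucleus and 6.06% toward the cytoplasm), VIRMA with a shift toward the nucleus of 0.36 (SE 0.11, edgeR adjusted p = 0.0247). Leaving out single libraries ended all 3 calls: METTL3 for 6 libraries (edgeR adjusted p 0.0593 to 0.157), YTHDF3 for 12 (0.0517 to 0.226) and VIRMA for 7 (0.0501 to 0.200). The levels of the nuclear marker RNAs differed between genotypes as well. Cytoplasmic MALAT1 was 22.8 ± 1.92 CPM (SD, n = 4) in the control, 32.2 ± 3.25 (n = 2) without IGF2BP1, 77.7 ± 3.71 (n = 2) in the IGF2BP2 knockout and 92.7 ± 21.1 (n = 4, batch 5 included) in the IGF2BP3 knockout, and nuclear MALAT1 was 108 ± 15.9 (SD, n = 4) in the control, 119.5 ± 4.41 (n = 2) without IGF2BP2 and 218 ± 26.1 (n = 2) without IGF2BP3. In cytoplasmic RNA NEAT1 stood at 122 ± 15.9 CPM in the control and 519 ± 7.62 CPM in the IGF2BP2 knockout. In the IGF2BP3 knockout it stood at 592 and 583 CPM in batches 3 and 4 and at 200 and 203 CPM in batch 5. The ratio fit held batches 1 to 4 only. Nuclear NEAT1 stood, in the order of control, IGF2BP2 and IGF2BP3 knockouts, at 209.8 ± 33.5, 380.0 ± 26.1 and 739 ± 65.7 CPM. The part of these differences in the ratio calls was not tested. ALKBH5, which fell in both compartments of the IGF2BP1 knockout, had a ratio change of 0.14 (SE 0.10, edgeR adjusted p = 0.464).

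**Figure D5:**
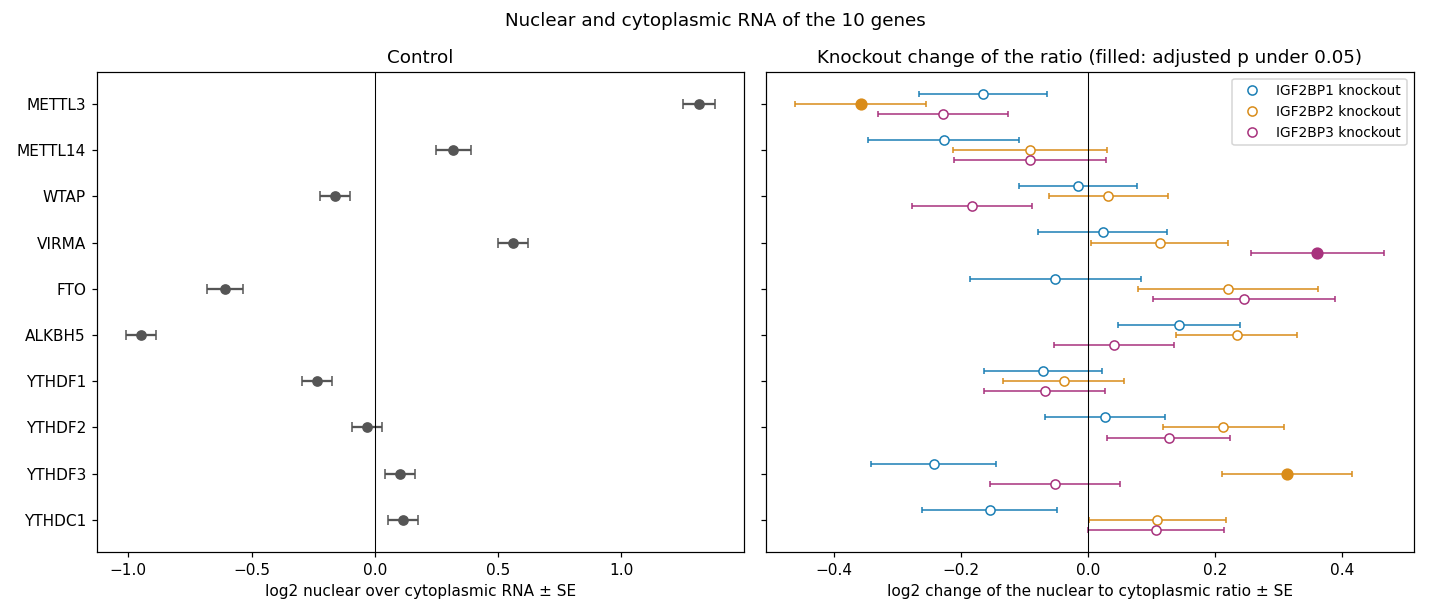
Left, log2 nuclear over cytoplasmic level in control cells (4 and 4 libraries); right, change of that ratio in each knockout; points are fitted values and bars SEs, filled on the right where the edgeR adjusted p is under 0.05. METTL3 is at 1.31 and ALKBH5 at -0.95 on the left, and the 3 filled points on the right are METTL3 (-0.36) and YTHDF3 (0.31) in the IGF2BP2 knockout and VIRMA (0.36) in the IGF2BP3 knockout.

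The 2 cytoplasmic IGF2BP3 knockout libraries of batch 5 differed from those of batches 3 and 4. For 9 of the 10 genes they were higher, by between 10.9% (YTHDC1) and 29.4% (YTHDF3). FTO was the exception, at 37.8 CPM against 38.1 CPM. The share of all genes that were higher was not counted. The TMM factors were 0.988 and 0.992 in batch 5, against 1.117 and 1.114 in batches 3 and 4. The part of scaling in the rise was not tested. Outside the 10 genes, NEAT1 was lower in batch 5, at 200 and 203 CPM against 592 and 583 CPM. In batch 5 YTHDF2 stood at 133 and 137 CPM and VIRMA at 60.95 and 67.2 CPM, still below every control library, as were METTL3, FTO and YTHDC1. METTL14, WTAP, YTHDF1 and YTHDF3 lay above the controls' highest value there. No control was sequenced in that batch, so genotype and batch cannot be told apart there, and these 2 libraries enter the fit only through the estimate of spread.

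The wider set of m6A genes was read from 4 further lists, chosen with results of these data known. Cytoplasmic RNA of the IGF2BP3 knockout had calls in 1 direction in all 4. Lower were 9 of 9 further methyltransferase genes, 9 of 9 other m6A-binding proteins, 7 of 8 genes of the S-adenosylmethionine cycle and 8 of 11 CCR4-NOT subunits, with 0 higher. The medians were -0.31, -0.65, -0.46 and -0.28, against 0.02 for all genes, of which 33.2% were called lower. In the IGF2BP2 knockout 6, 8, 6 and 6 genes of these lists were lower and 0 higher (33.2% and 30.9% of all genes). In the IGF2BP1 knockout 1, 4, 4 and 0 were lower and 4, 1, 3 and 5 higher (21.9% and 22.5% of all genes). Upper quartile scaling shifted the median of all genes up by 0.15 in the IGF2BP2 and by 0.17 in the IGF2BP3 knockout. With it the IGF2BP3 counts became 5, 8, 7 and 6 lower with 0, 0, 1 and 1 higher, and the IGF2BP2 counts 5, 6, 6 and 4 lower with 2, 0, 1 and 3 higher.

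Of the genes named from these lists, only FMR1, LRPPRC and SND1 had larger changes than any of the 10 core genes. FMR1, an RNA-binding translational regulator, fell by 1.41 (SE 0.04, edgeR adjusted p = 1.16e-23) in cytoplasmic RNA of the IGF2BP2 knockout. LRPPRC, which maintains mitochondrial mRNAs, fell by 1.21 (SE 0.04) there and by 1.27 (SE 0.04) in the IGF2BP3 knockout. SND1, a nuclease of the RNA-induced silencing complex, changed by -1.21 (SE 0.04) in the IGF2BP3 knockout. ZC3H13, a subunit that keeps the writer complex in the nucleus, fell by 0.75 (SE 0.05) and 0.67 (SE 0.05) in the IGF2BP2 and IGF2BP3 knockouts. METTL5, which methylates ribosomal RNA, fell by 0.86 (SE 0.06) in the IGF2BP3 knockout, and its activator TRMT112 by 0.81 (SE 0.04) in the IGF2BP2 knockout. CNOT1, the scaffold of the deadenylase that YTHDF2 recruits, fell by 0.84 (SE 0.04) and CNOT9 by 0.80 (SE 0.05) in the IGF2BP3 knockout. In the methyl donor cycle AHCY, which clears S-adenosylhomocysteine, fell by 0.63 (SE 0.04) and methionine synthase MTR by 0.66 (SE 0.04) in that knockout, and ADK by 0.73 (SE 0.05) in the IGF2BP2 knockout.

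Finally, the gene with the most like pattern was sought for each of the 10 among 9870 well-expressed genes, as the highest Pearson correlation of log2 CPM over the 31 distinct libraries after centring each kind of RNA. VIRMA was most like NCAPD3 (r = 0.986), YTHDF2 like SALL1 (0.976) and FTO like TNPO3 (0.966). ALKBH5 was most like UBE2G1 (0.949), which lies on the same chromosome arm at chr17:4269259-4366628. METTL3 was most like B4GALNT3 (0.939), YTHDC1 like RFC1 (0.926), YTHDF3 like UBE2K (0.917) and YTHDF1 like SIX4 (0.903). WTAP was most like GLRX2 (0.88) and METTL14 like KBTBD8 (0.815). Among the 10 genes themselves the highest correlation was between FTO and YTHDC1 (0.804) and the lowest between WTAP and VIRMA (-0.52). These libraries share clones and batches, so the correlations describe the data and carry no test.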

How the data were processed

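The labels name poly(A)-selected, stranded libraries of total, nuclear and cytoplasmic RNA, sequenced as paired reads. The deposited tables hold whole-number counts per gene and FPKM; STAR, featureCounts, DESeq2 1.44.0 and the build GRCh38 are named in the submitters' processing notes; annotation and strand setting are not given in the sources used here. Values show that the deposited FPKM use the gene span of GENCODE 29 as length. The 20403 identifiers without a symbol held 0.349% to 0.713% of counts and stayed in the tests.

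Counts were tested with edgeR 4.0.16 (R 4.3.3; quasi-likelihood test, trimmed mean of M-values, filter on low counts by group, terms for genotype and batch) separately for each kind of RNA; p-values were adjusted by Benjamini-Hochberg over all genes tested. The nuclear to cytoplasmic ratio was tested as an interaction of genotype and compartment. Batch, given in the labels, pairs knockout and control libraries. Differences between the same 2 batches correlated across genes at -0.193 to 0.0628 between groups. The scripts were tested on simulated counts.

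The members and lists were chosen with earlier results of these data known. Named are all 10 members, the 3 targeted genes, from each list and knockout up to 2 genes higher and 2 lower with the largest change called alike in cytoplasmic and total RNA, and for each member the gene of most like pattern. Overlapping genes and chromosomal neighbours were chosen after values were seen. Alternatives were RLE and upper quartile scaling, DESeq2 1.42.0, no filter or a mean of at least 1 CPM, limma 3.58.1 on log2(FPKM + 1) or log2(FPKM + 0.1), batch dropped, only the batches of the knockout, batch 5 left out, and each library left out. A sign change counts as a reversal only where either value was called. With a library of a pair left out, the lone library is assumed to vary like the others. Errors are the spread between libraries; total counts of 13689067 to 26119480 gave each member at least 547 reads.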

Additional observations from a re-analysis of the deposited data

Results flagged for a closer look

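In cytoplasmic RNA of the control, YTHDC1 stood at 118.8 CPM in replicate 1, the highest of 4 and far from the others at 109 to 110 CPM. It was the only such library among 40 groups of 4 examined, and chance flags about 1 in 20 groups. The IGF2BP2 knockout changed YTHDF3 and METTL3 differently in nuclear and cytoplasmic RNA, with changes of the ratio of 0.31 and -0.36 (log2), and the IGF2BP3 knockout did so for VIRMA, with 0.36; 30 such tests of the 10 genes were made. The METTL3 call was lost without nuclear control replicate 3, nuclear IGF2BP2 knockout replicate 1, cytoplasmic control replicate 3 or 4, or either cytoplasmic IGF2BP2 knockout library (edgeR adjusted p 0.0593 to 0.157). The VIRMA call was lost without nuclear or cytoplasmic control replicate 3 or 4, nuclear IGF2BP3 knockout replicate 1, or either cytoplasmic IGF2BP3 knockout library (edgeR adjusted p 0.0501 to 0.200). The YTHDF3 call was lost without any of 12 of the 20 libraries (edgeR adjusted p 0.0517 to 0.226) and in 4 other alternatives.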

How the results depend on the processing

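Single member values were kept in sign and side of the threshold in 178 of 180 tests with RLE, 160 of 180 with upper quartile, 171 of 180 with DESeq2 and 2047 of 2200 with a library left out. The 1 reversal was WTAP in cytoplasmic RNA of the IGF2BP3 knockout, at 0.0703 under upper quartile scaling; the cause was not tested. Numbers of members called moved as follows. The IGF2BP1 knockout had 2 in total RNA under RLE, upper quartile scaling, a mean of at least 1 CPM and no replicate block, and 2 in nuclear RNA at a mean of at least 1 CPM. The IGF2BP3 knockout had 2 in nuclear RNA with either limma fit. The IGF2BP2 knockout had 5 in cytoplasmic RNA without the replicate block (batch), and its ratio 1 under upper quartile scaling, DESeq2, no filter and a replicate block of nuclear and cytoplasmic pairs; the block or its removal moved no other count of members by over 1.5 times. With each library left out, counts ranged over 1 to 4 (IGF2BP1, total), 1 to 3 (IGF2BP1, nuclear), 1 to 7 (IGF2BP2, total), 1 to 4 (IGF2BP3, nuclear), 2 to 5 (IGF2BP3 against IGF2BP2, total), 0 to 4 (IGF2BP2, ratio) and 0 to 1 (IGF2BP3, ratio). Upper quartile scaling also changed the split of higher and lower calls from 3 and 6 to 3 and 3 (IGF2BP2, cytoplasmic), from 1 and 6 to 3 and 5 (IGF2BP3, cytoplasmic), from 0 and 4 to 2 and 2 (IGF2BP3, nuclear), from 2 and 3 to 3 and 1 (IGF2BP2, total), from 0 and 1 to 1 and 1 (IGF2BP1, total) and from 3 and 6 to 4 and 3 (IGF2BP2 against IGF2BP1, cytoplasmic). With 2 libraries per knockout, the SE of a member in total or nuclear RNA was about 0.1 on the log2 scale, which limits what smaller changes could be called.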
